A study of Mus musculus with 2 samples.

Results

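The 83 genes described here encode the proteins of the cytosolic ribosome, and they were taken by gene symbol from the 27998 genes in the files. The rule took symbols made of Rps or Rpl and a number, with an a, x, l or l1 ending allowed, and added Rplp0, Rplp1, Rplp2 and Rpsa, while 16 pseudogene names and the S6 kinases stayed out. Of the 83, 31 belong to the small 40S subunit and 52 to the large 60S subunit. GENCODE lists Rpl6l as a processed pseudogene and the other members as protein-coding genes. Rps3a1, Rps27rt, Rpl36al, Fau and Gnb2l1 (Rack1) also encode ribosomal proteins or close copies but fall outside the symbol rule, so their values are given separately.

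The cells came from the buccal mucosa of 12-week-old female C57BL/6 mice, all of 1 genotype and untreated as far as the labels say. Dissociated tissue of 10 animals was pooled, sorted by FACS for a high level of CD104 (β4-integrin, which ties basal keratinocytes to the basement membrane), and captured on the 10x Chromium platform. That suspension was split into technical replicates, called library 1 and library 2 below, so the study holds 1 independent sample and measures no spread between animals. The study looked for sub-populations within the basal layer, and its cells are compared here by how far they had differentiated and by whether they were cycling.

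Library 1 held 7215 barcodes and 67962712 UMIs (unique molecular identifiers, which count captured transcripts), and library 2 held 9076 barcodes and 73935792 UMIs. Cells passed with 500 genes or more and no more than 10% of UMIs from mitochondrial genes (6907 cells of library 1, 8563 of library 2), and 104 barcode sequences occurred in both libraries. Krt4 and Krt13, the keratin pair of differentiating oral epithelium, set 3 bins by their summed UMIs per 10000 UMIs of the cell: low (under 80), middle (80 to under 350) and high (350 or more). Cells with at least 10 summed UMIs per 10000 of Top2a, Cenpf, Ube2c and Ccnb1, genes of late S phase to mitosis, were called cycling. The summed level of 7 basal markers, including Krt5, Krt14 and Itgb4, was 174 and 177 UMIs per 10000 in low non-cycling cells of the libraries, against 18.2 and 20.5 in high non-cycling cells. Cells of the high bin thus carried less of these basal transcripts, although they had passed the sort for CD104.

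A ribosome reads mRNA on its small subunit and joins amino acids on its large subunit, and each ribosome takes 1 copy of nearly every ribosomal protein. The acidic P proteins are the exception, since they form a stalk in several copies that recruits translation factors. Most ribosomal protein mRNAs begin with a run of pyrimidines (the 5′ TOP motif), through which the growth-sensing kinase mTOR controls their translation, and their transcripts are among the most abundant in a growing cell.

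Sequences around the transcription start are shown for 8 of the members named in the results, to make the run of pyrimidines visible. Of the members singled out below, Rps2 (longest run 6 bases) is not shown and Rplp1 had no promoter in the RefSeq table. Each sequence has the 15 bases before the start followed by the 15 bases from it, 5′ to 3′, from RefSeq promoters on GRCm38.p6. Capitals mark the longest unbroken run of C and T in the window.
Rps27: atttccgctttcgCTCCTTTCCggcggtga
Rps27l: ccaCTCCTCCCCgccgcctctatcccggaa
Rps18: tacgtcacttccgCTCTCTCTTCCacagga
Rps6: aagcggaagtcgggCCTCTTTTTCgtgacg
Rps4x: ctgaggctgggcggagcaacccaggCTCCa
Rpl13: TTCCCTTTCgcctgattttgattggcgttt
Rplp0: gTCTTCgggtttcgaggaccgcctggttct
Rplp2: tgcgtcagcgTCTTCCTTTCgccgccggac

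The windows lie at chr3:90213634-90213663 on the minus strand (Rps27), chr9:66946071-66946100 on the plus strand (Rps27l), chr17:33955651-33955680 minus (Rps18), chr4:86857353-86857382 minus (Rps6), chrX:102189377-102189406 minus (Rps4x), chr8:123102335-123102364 plus (Rpl13), chr5:115559452-115559481 plus (Rplp0) and chr7:141447636-141447665 plus (Rplp2). In Rps27, Rps18, Rps6 and Rplp2 the run spans the annotated start, whereas in Rps27l, Rpl13 and Rplp0 it lies upstream of it and in Rps4x downstream. The annotated start can differ by some bases from the one used in these cells.

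Of the 83 members, 62 had a promoter in the RefSeq table. A run of at least 8 pyrimidines occurred in the 30-base window of 25 of them (40.3%), against 11.9% of all 27025 promoters, and the median longest run was 6.5 bases against 4. The letters CCGGAAG, which ETS-family factors such as GABPA are known to bind, occurred on either strand of the 300-base promoter in 24 of 62 members (38.7%) and in 9.11% of all promoters. AAGATGGC, the core of the YY1 motif, occurred in 6 of 62 (9.68%) against 2.87%, and CTTTC in 49 of 62 (79.0%) against 57.2%. The length of the pyrimidine run had little relation to how a member varied: over the 59 members that had both, Pearson's r with the log2 ratio was -0.07 for high over low and -0.15 for cycling over non-cycling. These points share the same libraries and cells.

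Ribosomal protein transcripts made up 26.0% of all UMIs in the kept cells of library 1 and 23.8% in library 2. In non-cycling cells the share was 28.9% and 26.4% in the low bin, 27.5% and 25.5% in the middle bin, and 25.3% and 23.3% in the high bin. In cycling cells it was 23.3% and 21.5% in the low bin and 23.0% and 21.3% in the middle bin. As means of the technical libraries these were 27.6% ± 1.76, 26.5% ± 1.45, 24.3% ± 1.43, 22.4% ± 1.21 and 22.1% ± 1.24 (SD, n = 2). Library 2 lay below library 1 in all 6 classes, so classes were compared within each library. Within each, the order low, middle, high of the non-cycling cells and the order of non-cycling above cycling cells in these bins were the same.

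The class of high cycling cells held 9 and 16 cells, with a share of 22.8% and 21.8%. It was too small for its members to be described one by one. Single cells of a class varied widely: with every cell thinned to 3000 UMIs, the share in low non-cycling cells ran from 20.8% at the 5th to 36.3% at the 95th percentile in library 1 and from 19.4% to 33.3% in library 2. The SD between these cells was 4.78 and 4.29 percentage points, of which counting alone would give 0.83 and 0.81. In low cycling cells the SD was 3.54 and 3.39 points. The spans of single cells overlapped between all classes.

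**Figure D1:**
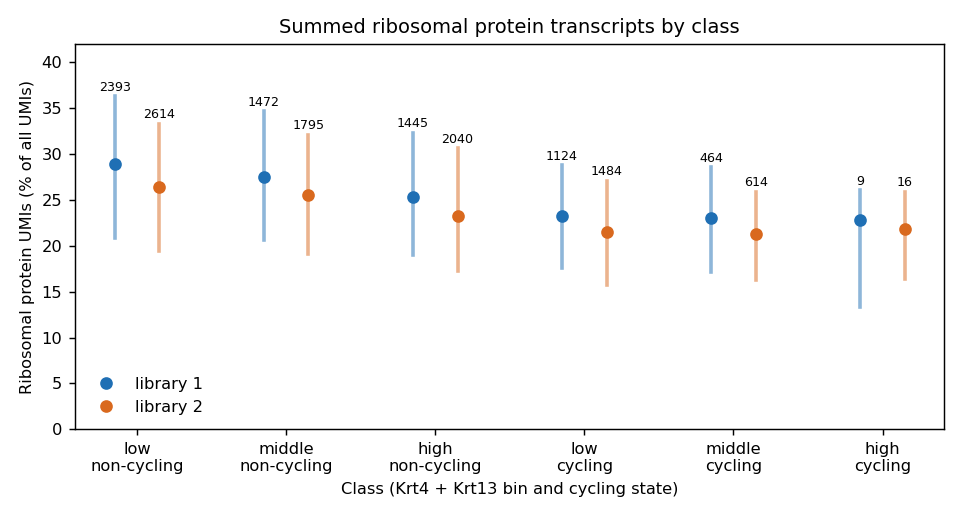
Share of UMIs from the 83 ribosomal protein genes (vertical axis, percent) in each class (horizontal axis), for library 1 (blue) and library 2 (orange). Points are UMIs summed over the class, bars run from the 5th to the 95th percentile of single cells thinned to 3000 UMIs, and the number over each bar is its count of cells: the point is highest in low non-cycling cells (28.9% and 26.4%) and near 22% to 23% in library 1 or 21% to 22% in library 2 in cycling cells.

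The number of ribosomal protein UMIs in a cell went the other way from the share. The median cell of the low non-cycling class had 1718 and 1318.5 such UMIs, and that of the high non-cycling class 3746 and 2894. All its other UMIs increased more, from 4182 and 3590.5 to 10809 and 9057.5. Cycling low cells also had more ribosomal protein UMIs than non-cycling low cells, 1942 and 1483, beside 6344 and 5415.5 others. A lower share in these classes therefore stood beside a higher number of captured ribosomal protein transcripts.

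Finer bins showed where along Krt4 and Krt13 the share was lower. In non-cycling cells of library 1 it was 27.9% under 20 UMIs per 10000, 29.4% at 20 to 40, 28.5% at 40 to 80, 27.7% at 80 to 160, 27.5% at 160 to 350 and 26.7% at 350 to 700, and then 23.4% at 700 to under 1400. Cells at 1400 or more were too few to form a bin. Library 2 gave 24.8%, 26.8%, 26.3%, 25.6%, 25.4%, 24.8% and 21.5% over the same bins. The step to the last bin was the largest in both libraries. That bin also had the most UMIs per cell, with medians of 19953 and 16693. Counted against UMIs other than Krt4 and Krt13, the share was 28.7% at 40 to 80 and 28.2% at 350 to 700 in library 1, 26.4% and 26.2% in library 2, and 25.7% and 23.7% in the last bin. In cycling cells the share stayed between 22.5% and 23.5% in library 1 and between 21.0% and 21.6% in library 2 over all 5 bins filled.

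**Figure D2:**
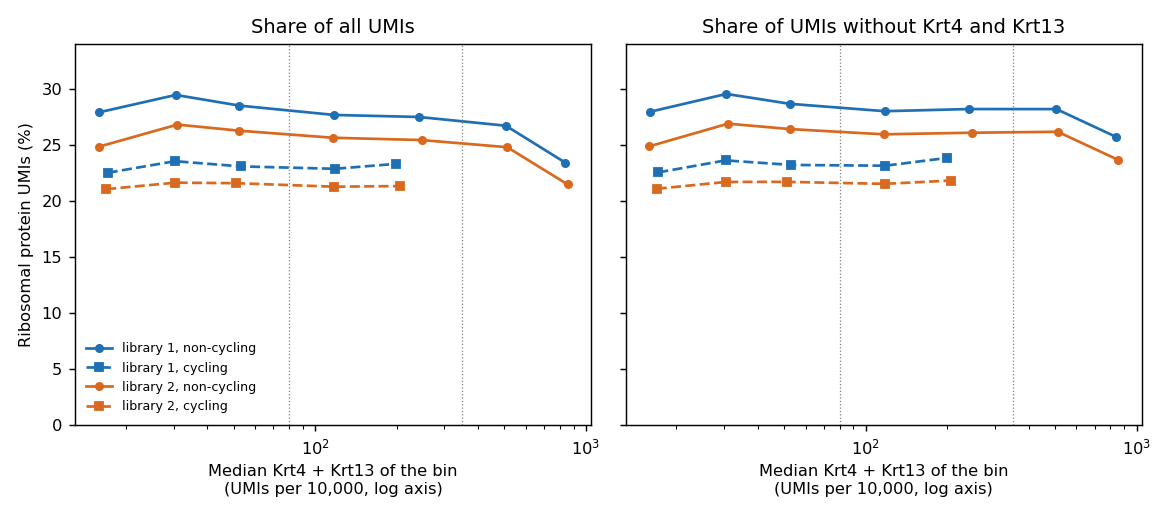
Share of ribosomal protein UMIs (vertical axis, percent) against the median Krt4 plus Krt13 level of each bin (horizontal log axis, UMIs per 10000), for non-cycling (circles, solid) and cycling cells (squares, dashed) of library 1 (blue) and library 2 (orange). Left, share of all UMIs, and right, share of UMIs other than Krt4 and Krt13; dotted lines mark the bounds 80 and 350, and the drop in the last bin (23.4% and 21.5% on the left) remains on the right (25.7% and 23.7%).

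The first comparison asked how the members differ between differentiating and undifferentiated cells that are not cycling. Summed over the members, the level in high cells was 0.88 times that in low cells (log2 -0.19 in library 1 and -0.18 in library 2), but a log2 ratio of 0.06 above it once each class was scaled to the median of all genes, because that median was itself at -0.25. The direction of the sum thus depends on the scaling: ribosomal protein transcripts were lower as a share of all UMIs and slightly higher than the typical gene. Krt4 and Krt13, which define the classes, took 6.84% and 7.06% of UMIs in high cells, and the log2 ratio was -0.09 with both left out of the total. In cells of 5000 to 10000 UMIs it was -0.13.

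The members moved within a narrow range. Their median log2 ratio was -0.17, with an interquartile range of -0.25 to -0.09, whereas that of all 4958 genes measured at 0.2 or more UMIs per 10000 was -0.65 to 0.12. Of the 83 members, 80 reached that level, and 0 of 80 lay past 1.5-fold in both libraries, as 35.9% of all measured genes did. At a log2 ratio of -0.32 or below in both libraries there were 11 (42.2% of all genes). They were lower in both libraries in 70 of 80 cases (65.6% of all genes) and higher in 7 (30.3%). Against the median of all genes, 55 lay above and 19 below in both libraries (47% of all genes each). The ratio of 60S to 40S UMIs was 1.37 and 1.36 in low and 1.37 and 1.36 in high cells, and 1.34 and 1.33 in low cycling cells. Members were also measured alike: across the 80, the log2 ratios of the libraries correlated at r = 0.98, as a description of the same cells' suspension, with a median gap of 0.02.

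Because the members are abundant and move together, they were also read against the members' own median. Those whose log2 ratio lay at least 0.32 from it in both libraries were singled out. In high over low cells these were Rps27l, Rps2 and Rplp1 above and Rps27 below, 4 of 80, where 52.9% of all genes lay that far from the same median. Nearest to that bound without reaching it were Rplp0 above (0.29 from the median) and Rpl13 below (-0.28).

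Rps27 encodes eS27, a zinc-finger protein of the 40S subunit (ENSMUSG00000090733, GRCm38 chromosome 3, 90212522 to 90213651). It stood at 39.2 and 33.1 UMIs per 10000 in low, 32.6 and 27.6 in middle and 27.5 and 22.6 in high non-cycling cells. Within each library every step was down, and the high level of library 1 lay below the low level of library 2. The log2 ratio of high over low was -0.51 (95% counting interval -0.53 to -0.50) in library 1 and -0.55 (-0.57 to -0.53) in library 2, lower also against the median of all genes by 0.29.

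Its paralog Rps27l, which the tumour suppressor p53 is known to induce, went the other way (ENSMUSG00000036781, chromosome 9, 66946086 to 66949516). The levels were 7.15 and 7.34 in low, 8.31 and 8.63 in middle and 8.59 and 8.53 in high non-cycling cells. The low class was the lowest in both libraries, while middle and high cells did not have the same order in the libraries. High over low gave a log2 ratio of 0.26 (0.23 to 0.30) and 0.22 (0.18 to 0.25). For each 100 UMIs of Rps27 there were thus 18.3 and 22.2 of Rps27l in low cells and 31.3 and 37.7 in high cells.

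Rps2 encodes uS5, which lines the mRNA entry channel (ENSMUSG00000044533, chromosome 17, 24718116 to 24721929). It was at 39.7 and 37.9 in low, 42.9 and 41.1 in middle and 45.2 and 43.3 in high non-cycling cells, with a log2 ratio of 0.19 in both libraries. Its level followed the order of the bins, and high cells of either library lay above low cells of both. In cells of 5000 to 10000 UMIs, a range chosen after seeing the data to narrow the spread of depth between classes, the log2 ratio of Rps2 was -0.01, and it was then 0.11 above the members' median.

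The stalk was mixed. Rplp1, an acidic P protein of the stalk (ENSMUSG00000007892, chromosome 9, 61913284 to 61914542), was at 39.7 and 32.6 in low, 43.4 and 36.3 in middle and 44.4 and 36.8 in high cells (log2 0.16 and 0.17), and 0.21 in cells of 5000 to 10000 UMIs. Its partner Rplp2 was at 31.7 and 25.9 in low and 29.0 and 24.1 in high cells (-0.13 and -0.11), near the members' median. Rplp0, the base of the stalk, was at 59.8 and 56.0 in low, 60.4 and 57.05 in middle and 64.6 and 60.9 in high cells (0.11 and 0.12), but at -0.10 in cells of 5000 to 10000 UMIs. Of these genes Rplp1 and Rplp2 kept their sign in that range and Rplp0 did not.

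Other members above the median included Rpl38, a 60S protein known for its part in translating Hox mRNAs, at 13.3 and 10.4 in low and 14.1 and 11.0 in high cells (0.08 in both libraries), and Rpl19 (0.06 and 0.11). Rpl5, 0.22 above the median, was at 14.1 and 12.7 in low and 14.4 and 13.4 in high cells. Its mean log2 ratio stayed between 0.03 and 0.30 in all settings tried. In cells of 5000 to 10000 UMIs Rpl38 was at 0.26, and it was then singled out with Rps27l, whereas Rpl19 was at -0.04. Rpsa, the 40S protein also known as the laminin receptor precursor, was at 29.9 and 27.9 in low and 27.3 and 25.5 in high cells (-0.13 in both), close to the median.

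Members low in high cells were led, after Rps27, by proteins of the large subunit. Rpl13 was at 89.3 and 91.4 in low, 79.0 and 80.6 in middle and 66.3 and 66.4 in high cells, a log2 ratio of -0.43 and -0.46. Rpl24, a late-joining 60S protein, was at 35.9 and 34.6 in low and 26.4 and 25.6 in high cells (-0.44 and -0.43). Rps6, whose protein is phosphorylated by the S6 kinases downstream of mTOR, was at 58.6 and 58.1 in low, 52.2 and 52.1 in middle and 44.8 and 44.2 in high cells (-0.39 in both). High cells of both libraries lay below low cells of both in each of these. Rpl24 was at -0.22 in cells of 5000 to 10000 UMIs, while Rpl13 (-0.37) moved less.

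Middle against low cells gave the early step alone. The summed log2 ratio was -0.07 and -0.05 in the libraries, but -0.00157 when scaled to the median of all genes, and 0 of 80 members were 1.5-fold apart (12.1% of all genes) or 0.32 on the log2 scale from the members' median (25.1%). The same genes still stood at the ends: Rps27 was the lowest member (-0.27 and -0.26), and Rpl13 (-0.18 in both) was also among the lowest. Rps27l was the highest (0.22 and 0.23), followed by Rpl7l1 (0.20 and 0.15), Rplp1 (0.13 and 0.16), Rpl38 (0.12 and 0.13) and Rps2 (0.11 and 0.12). Both comparisons used the low cells, so they are not independent of each other.

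**Figure D3:**
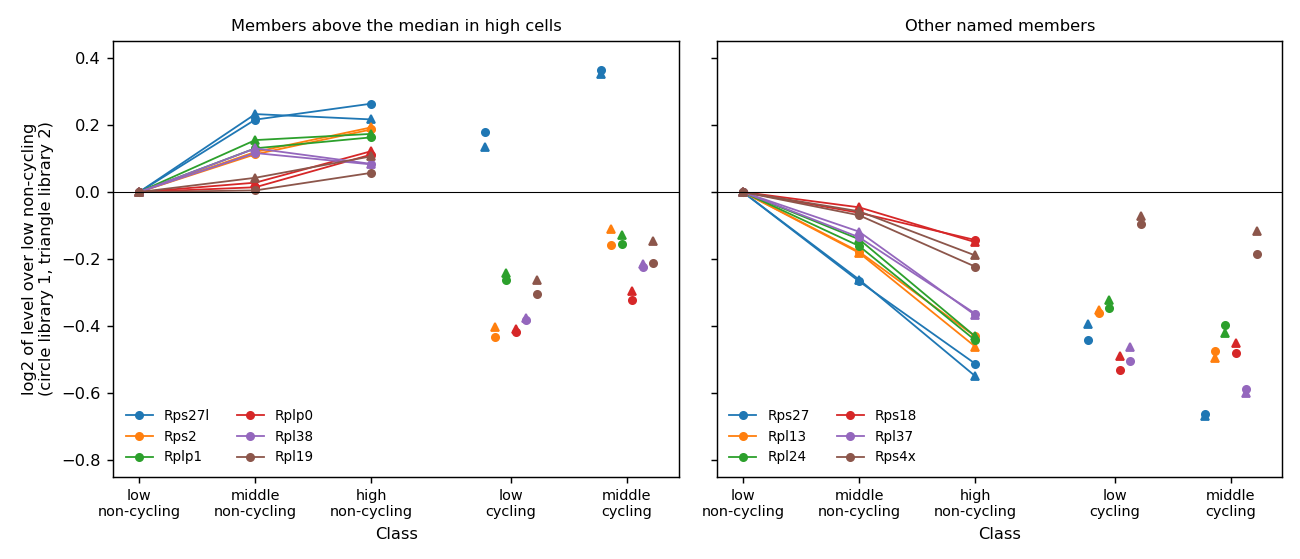
Level of named members in 5 classes (horizontal axis) as the log2 ratio to the low non-cycling class of the same library (vertical axis), with circles for library 1 and triangles for library 2. Left, Rps27l lies above 0 in all classes and the other 5 members lie above 0 in high non-cycling but below 0 in cycling cells; right, Rps27, Rpl13, Rpl24, Rps18, Rpl37 and Rps4x lie below 0 in all other classes.

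The second comparison asked how cycling cells differ from non-cycling cells with as little Krt4 and Krt13. Here the family as a whole was lower: summed over members, cycling low cells had 0.81 times the level of non-cycling low cells, a log2 ratio of -0.31 and -0.29, and -0.31 on average against the median of all genes, which was at 0.01. Of 80 members, 79 were lower in both libraries, against 42.9% of all 5493 genes, and 79 lay below the median of all genes in both (44.2%). The member median was -0.30, with an interquartile range of -0.36 to -0.23. Again 0 of 80 lay past 1.5-fold (12.1% of all genes), and 30 had a log2 ratio of -0.32 or below (12% of all genes).

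The same comparison in the middle bin uses other cells throughout. There the sum was at -0.26 in both libraries, 79 of 80 members were lower in both (37.5% of all genes), and 0 lay past 1.5-fold (11.3%). The members' log2 ratios in the low and the middle bin correlated at r = 0.85 over the 80 members, which share libraries but no cells. With the 25 high cycling cells the sum was at -0.15 and -0.09. In cells of 5000 to 10000 UMIs the low-bin ratio was -0.32.

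Rps27l was the exception in both bins. It was at 7.15 and 7.34 in non-cycling and 8.10 and 8.06 in cycling low cells (log2 0.18 and 0.14, counting intervals 0.14 to 0.22 and 0.09 to 0.18), and at 8.31 and 8.63 against 9.21 and 9.37 in the middle bin (0.15 and 0.12). Cycling cells were higher in each library and bin. Rps27l was also the 1 member singled out in either bin, above the members' median, where 44.5% of all genes in the low bin and 41.3% in the middle bin lay that far from it in either direction. Rps27 was lower in cycling cells (28.8 and 25.2 against 39.2 and 33.1, log2 -0.44 and -0.39), and Rps27l UMIs for each 100 of Rps27 went from 18.3 and 22.2 to 28.1 and 32.0.

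Among the 40S members, Rps18, a protein of the subunit head, was the lowest in cycling cells. It was at 66.7 and 68.5 in non-cycling and 46.2 and 48.8 in cycling low cells (-0.53 and -0.49), and high against low cells differed much less (60.4 and 61.8 in high cells, -0.14 and -0.15). Rps2 was at 29.4 and 28.6 in cycling against 39.7 and 37.9 in non-cycling low cells (-0.43 and -0.40). In the low bin this member, among the highest of the family in differentiating cells, was thus below the members' median in cycling cells. In the middle bin Rps2 lay at that median (0.0006 from it). Rps4x, the X-linked 40S protein, was the 40S member that was lower by the least: 60.9 and 54.1 in non-cycling and 57.04 and 51.5 in cycling low cells (-0.09 and -0.07). Rps24 (-0.14 and -0.10) also differed little. In the middle bin Rps4x was at -0.12 and -0.06 and Rps18 at -0.42 and -0.41.

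Among the 60S members, Rpl37 was at 36.9 and 30.5 in non-cycling and 26.0 and 22.1 in cycling low cells (-0.50 and -0.46), and at -0.45 and -0.48 in the middle bin. Rpl36 was at 18.8 and 16.2 against 13.2 and 11.8 (-0.51 and -0.46), although it hardly differed between high and low cells (-0.04 and -0.03). Rpl11, which binds the p53 regulator Mdm2 with Rpl5, was at 44.1 and 40.2 against 32.5 and 30.2 (-0.44 and -0.41), and Rpl5 at 14.1 and 12.7 against 11.9 and 11.0 (-0.25 and -0.21). Rpl3, near the peptidyl transferase centre, was at -0.43 and -0.42 in the low bin but at -0.20 and -0.21 in the middle bin. Rpl7 (-0.13 and -0.08) was the 60S member that differed least. In the stalk, Rplp0 (-0.42 and -0.41) was lower than Rplp1 (-0.26 and -0.24), Rplp2 (-0.20 and -0.19) and Rpsa of the 40S subunit (-0.24 and -0.20).

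**Figure D4:**
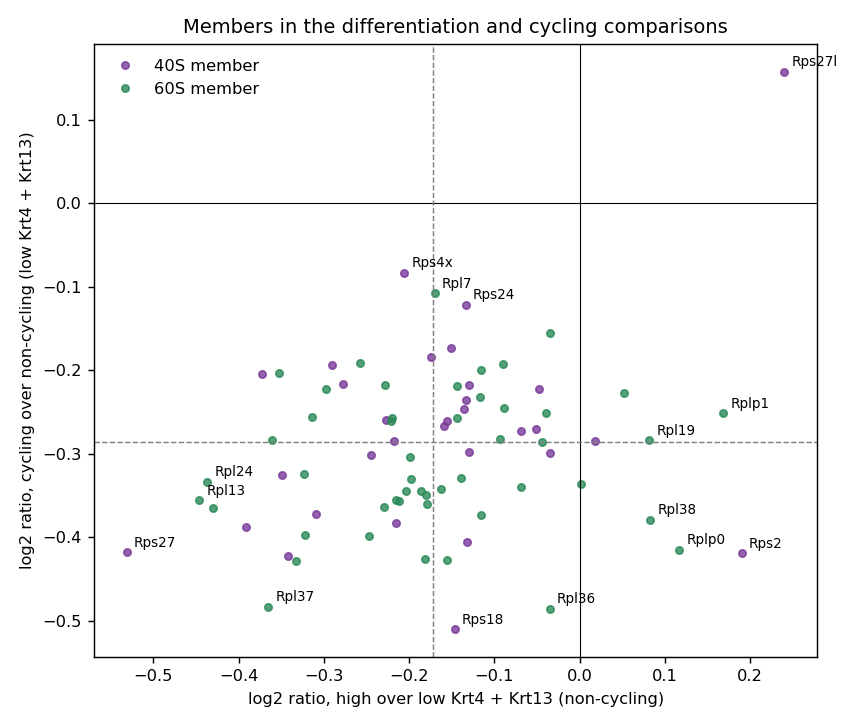
The 80 measured members by their mean log2 ratio of high over low non-cycling cells (horizontal axis) and of cycling over non-cycling low cells (vertical axis), 40S members purple and 60S members green. Solid lines mark 0 and dashed lines the members' medians of the plotted values; the axes share the low non-cycling cells, and Rps27l alone lies above 0 on both, while Rps2, Rplp0, Rplp1, Rpl38 and Rpl19 lie right of 0 and below it.

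Where a second gene encodes a similar protein, its share differed from pair to pair. Rpl22l1 outnumbered Rpl22, a regulator of lymphocyte development, in UMIs: 22.5 and 22.7 against 15.6 and 13.2 in low non-cycling cells. Their ratio changed little, from 144 and 172 UMIs of Rpl22l1 for each 100 of Rpl22 in low to 156 and 183 in high and 147 and 174 in low cycling cells. Rpl7l1 was at 1.004 and 1.14 in low and 1.02 and 1.07 in high cells, under 4 UMIs for each 100 of Rpl7. Rpl36al, outside the symbol rule, went from 36.3 and 41.0 for each 100 UMIs of Rpl36a in low to 46.8 and 51.2 in high cells. Counts per gene are not set per length here, and UMIs of near copies can be shared or lost in counting.

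The members known from muscle or testis were near 0. Rpl3l, the striated-muscle form of Rpl3, had 0 UMIs in all kept cells, which allows up to 3 counts. Rpl10l and Rpl39l, testis forms, had 4 and 56 UMIs in all, and with Rpl3l these were the 3 members below 0.2 UMIs per 10000. They are left out of the counts of 80. Rpl6l was at 2.84 and 2.26 in low and 2.41 and 2.03 in high cells (-0.24 and -0.16).

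Levels across members spanned from about 1 to about 90 UMIs per 10000. Averaged over the 5 larger classes the most abundant included Rpl13, Rps19 (72.2 and 74.3 in low non-cycling cells), Rpl32 (71.0 and 66.4) and Rps18, and the top 10 held 23.3% of the member total. The least abundant measured members were Rpl7l1, Rpl6l, Rps27l and Rps21 (9.59 and 7.10). These are UMIs per gene, not per length, and they say nothing of the protein. A member's level had a weak relation to its log2 ratio, with r = -0.23 for high over low and -0.19 for cycling over non-cycling over the 80 members of the same libraries.

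In low non-cycling cells 70 of 80 members were lower in library 2, as were 36.0% of the 5358 genes measured there, with a median log2 ratio of library 2 over library 1 of -0.17 against 0.05 over all genes, and a range from -0.43 to 0.18. Ratios taken within a library do not carry this offset.

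**Figure D5:**
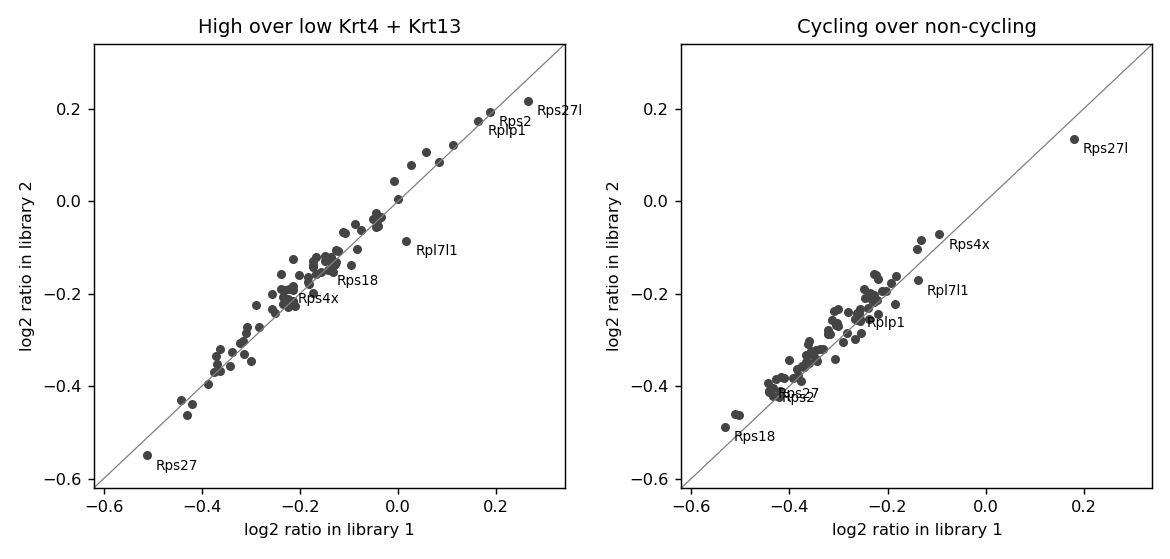
Log2 ratio of each of the 80 measured members in library 1 (horizontal axis) and library 2 (vertical axis), for high over low non-cycling cells (left) and cycling over non-cycling low cells (right), with the line of equal values. Points lie along the line (r = 0.98 and 0.97), with Rps27l at the upper end of both panels, Rps27 at the lower end on the left and Rps18 on the right.

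Ribosomal protein genes outside the symbol rule were measured in the same classes. Rps3a1 was at 50.7 and 45.2 in low, 40.6 and 37.5 in high and 42.2 and 38.6 in low cycling cells. Fau, which encodes a fusion of a ubiquitin-like protein with eS30, was at 26.0 and 22.5 in low, 22.2 and 19.4 in high and 21.6 and 19.0 in low cycling cells. Gnb2l1 was near equal in low and high cells (log2 -0.03 and 0.03) and lower in cycling cells (-0.28 and -0.25). Rps27rt, a retrotransposed copy of Rps27, was at 3.04 and 2.45 in low and 2.17 and 1.63 in high cells (-0.49 and -0.59), close to Rps27 itself, with which it may share reads. In cycling low cells Rps27rt was at -0.60 and -0.57, below the lowest measured member of that comparison, Rps18 (-0.53 and -0.49). Likewise Rps18-ps3 was at -0.56 and -0.57 in cycling low cells and Rpl13-ps3 at -0.44 and -0.55 in high cells, beside Rps18 and Rpl13. All pseudogene names together held 0.17% and 0.14% of UMIs in low non-cycling cells.

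Other genes of translation were taken from lists chosen with earlier results of these data known. Of 22 further mRNAs of the TOP class, mostly translation factors, 0 were higher and 2 lower by 1.5-fold in high against low cells (9.68% and 26.3% of all genes), with a median log2 ratio of -0.25, equal to that of all genes. The 2 were Eif4b (1.67 to 0.83 UMIs per 10000, log2 -0.98 and -1.03), a helicase cofactor, and the initiation subunit Eif3e (-0.74 and -0.75). Eif3b was at 0.54 and 0.52. In cycling cells the list's median was -0.30, like that of the ribosomal proteins, with 0 higher and 1 lower of 22 (8.77% and 3.37% of all genes). That gene was Eif3e (-0.70 and -0.66), and the elongation factor Eef2 was at 13.4 in non-cycling and 8.78 in cycling cells (-0.64 and -0.57), while Tpt1 was at -0.09 and -0.003.

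The 19 other initiation factors went both ways in high cells, with 3 higher and 3 lower (9.68% and 26.3% of all genes) and a median of -0.14. Eif6, which keeps 60S subunits from joining too early, was at 3.89 in low and 6.36 in high cells (0.73 and 0.70), Eif5a at 0.65 and 0.61, Eif1b at -0.94 and -1.06 and Eif2a at -0.86 and -0.88. In cycling cells 1 of 19 was higher, the cap-binding protein Eif4e (0.67 and 0.69), and 1 lower, Eif1a (-0.63 and -0.64), with a median of -0.08. Of all genes 8.77% were higher and 3.37% lower.

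Of 49 ribosome assembly genes, 40 were measured in high against low cells, with 2 higher and 1 lower (9.68% and 26.3% of all genes) and a median of -0.06. The snoRNP protein Nhp2 was at 2.13 in low and 4.80 in high cells (1.20 and 1.14) and Bysl at 0.69 and 0.70, whereas Npm1 was at 16.1 and 10.4 (-0.63 and -0.62). In middle against low cells the median of 41 was 0.23, with 2 higher and 0 lower (4.63% and 7.46% of all genes), while the summed ribosomal proteins were at -0.06 on average. In cycling low cells 0 were higher and 3 lower of 38 (8.77% and 3.37% of all genes), with a median of -0.33, among them the 40S maturation nuclease Nob1 (-0.84 and -0.79).

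Of 13 RNA polymerase I genes 6 were measured, 1 higher and 3 lower in high cells (9.68% and 26.3% of all genes; median -0.53), with the shared subunit Polr1d at 4.72 in low and 9.10 in high cells (0.94 and 0.95) and the factor Taf1d at -1.07 and -0.95. None of the 6 was past 1.5-fold in cycling cells (12.1% of all genes; median -0.01). Of 11 measured growth regulators 2 were higher and 2 lower in high cells (9.68% and 26.3% of all genes; median -0.08), among them the translation repressor Eif4ebp1 (0.61 and 0.59) and Maf1 (-0.93 and -0.84). In cycling cells 1 was lower, the Max partner Mxd4 (1.02 against 0.41, -1.37 and -1.25), as were 3.37% of all genes.

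Mitochondrial ribosomal proteins, which serve a separate ribosome, had 75 of 77 genes measured. In high cells 0 were higher and 1 lower, Mrps9 (-0.85 and -0.86), with a median of -0.06 (9.68% and 26.3% of all genes were higher and lower). In cycling low cells 1 was higher, Mrpl51 (0.75 and 0.74), and 1 lower, Mrps18b (-0.73 and -0.63), with a median of 0.06 (8.77% and 3.37% of all genes). In cycling cells the medians of the cytosolic and mitochondrial ribosomal proteins were -0.30 and 0.06.

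Several other quantities moved with the classes. Median UMIs per cell were 5965 and 4895 in low, 14721 and 11961 in high and 8282 and 6883.5 in low cycling cells, and mitochondrial genes held 4.35% and 4.85% of UMIs in low against 3.04% and 3.41% in high cells. The summed level of 14 immune markers was 6.53 and 14.5 UMIs per 10000 in low, 0.21 and 0.24 in high and 0.25 and 3.92 in low cycling cells, with none of the 14 at 0 in all classes. Of the other lists, 6 glandular markers summed to between 0.14 and 1.96, 6 fibroblast markers (Lum at 0) to between 0.07 and 2.79, and endothelial (Kdr at 0), melanocyte (Tyrp1 at 0) and erythroid markers to at most 0.04. Cells were then left out at 10 or more UMIs per 10000 of the immune markers, the fibroblast markers or Krt7 plus Krt18. Without them the summed log2 ratio of high over low cells was -0.20. The 16 S-phase markers summed to 5.58 and 5.82 in low non-cycling and to 11.3 in low cycling cells of both libraries, so some cells of S phase lie in the non-cycling class.

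With 1 suspension no test of significance was possible, and counting intervals cover neither animals nor handling. No doublets were removed and free RNA was not estimated.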

How the data were processed

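The deposited values are UMI counts per gene and cell barcode, which the authors made with Cell Ranger on mm10, per the submitters' processing notes. Version and annotation are not given in the sources used here. The members and gene lists were chosen with earlier results of these data known.

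Cells passed with 500 genes or more and no more than 10% of UMIs from mitochondrial genes. No doublet caller was run. UMIs were summed per class and library and scaled to 10000. Genes with a mean of 0.2 or more per 10000 were compared, and a difference was called at 1.5-fold in the same direction in both libraries. Members at least 0.32 on the log2 scale from the members' median were singled out. A count of 0 was set to 3. Intervals are 95% exact binomial and cover counting error only. No test was run, since both libraries came from 1 suspension. Named members are those singled out, the 5 highest and 5 lowest in each comparison, paralog pairs, stalk genes, the most and least abundant, and up to 4 examples per list. Rpl19, Rpl5, Rpl11, Rps3a1, Rps18-ps3 and Rpl13-ps3 were added after their values were seen. Some genes that the rule names are not reported here. Coordinates are from GENCODE M21, and promoters from RefSeq on GRCm38.p6, at a gene's annotated 5′ end where listed. The 1.5-fold rule was tested on simulated counts, and the summed share and the departures from the members' median were not. Software was matplotlib 3.10.9, pandas 2.3.3, scipy 1.17.1 and numpy 2.4.6 in Python 3.11.15.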

Additional observations from a re-analysis of the deposited data

How the results depend on the processing

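The cycling comparison kept its direction in every alternative run, for the sum and for 80 of 80 members, and the summed log2 ratio of -0.302 moved by more than the spread of the libraries only in cells of 5000 to 10000 UMIs (-0.320). The high over low ratio depended on the scaling and the cells. Its value of -0.187 turned to 0.059 with median-of-ratios scaling, and was -0.089 without Krt4 and Krt13 in the total, -0.207 without mitochondrial genes in it, -0.165 as a mean over cells, -0.197 without cells carrying markers of other types, -0.145 without the 5% of cells with the most UMIs, -0.176 and -0.220 with bounds of 60 and 250 or 100 and 500, -0.204 and -0.156 with a cycling threshold of 5 or 20, -0.167 after thinning and -0.134 in cells of 5000 to 10000 UMIs. For middle over low, -0.059 became -0.035 without Krt4 and Krt13 and -0.00157 with median-of-ratios scaling. For each of these the cause was not tested. In high over low cells 25 of 80 members kept 1 sign in every setting and in middle over low 45 of 80. The share of all genes that kept 1 sign was not counted for any comparison. Of the members singled out, Rps2 turned to -0.0145 in cells of 5000 to 10000 UMIs.

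The mean share of the high non-cycling class was 26.1% without Krt4 and Krt13 in the total. That of the high cycling class, 25 cells in the main setting, was 23.4% so and 23.2% without mitochondrial genes in the total. Other settings can change which cells the class holds. Its share was 23.3% with at most 5% mitochondrial UMIs, 21.4% without the 5% of cells with the most UMIs, 23.2% with bounds of 100 and 500, 23.8% and 20.5% with a cycling threshold of 5 or 20, and 23.1% after thinning. This class had no cells of 5000 to 10000 UMIs in at least 1 library.

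At 0.32 on the log2 scale in place of 1.5-fold, 11 members were lower in high cells (42.2% of all genes) and 30 in cycling cells (12% of all genes). No member was singled out at 1.5-fold from the median (0 in each comparison). At 0.20 on the log2 scale, 7 lay above and 5 below in high cells, 1 and 1 in middle cells, and 2 and 1 in cycling cells. The share of all genes past 0.20 was not counted. Past the wider bound of 0.32 it was already 52.9%, 25.1% and 44.5% in these comparisons. Rps27 was not singled out (0 below) as a mean over cells, without the 5% of cells with the most UMIs, after thinning and in cells of 5000 to 10000 UMIs, where its departure from the median was still -0.29. Rps2 was lost at 5% mitochondrial UMIs, without the top 5% and in cells of 5000 to 10000 UMIs, and Rplp1 with bounds of 60 and 250, a cycling threshold of 20 and in cells of 5000 to 10000 UMIs. Rps27l was lost only at 1.5-fold.

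With either library alone the ratios ran from -0.192 to -0.182 (high over low), -0.068 to -0.050 (middle over low) and -0.312 to -0.292 (cycling over non-cycling), and the same members were singled out. No paired analysis was possible because the 2 libraries form 1 group and each ratio is already taken within a library.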
